A study of Mus musculus with 19 samples.

Results

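Of the 9834 named genes on the array, 27 were taken as the homeobox genes of this report on FDCPmix cells after tamoxifen. They were taken by gene symbol alone, with no use of their values. Of the 27 genes, 13 were Hox genes or genes of the Hox partner families Meis and Pbx, namely Hoxa4, Hoxa7, Hoxa9, Hoxb2, Hoxb7, Hoxc9, Hoxd4, Hoxd8, Hoxd9, Meis2, Meis3, Pbx2 and Pbx3. The other 14 were Lhx2, Nkx2-4, Nkx2-6, Pax1, Pax2, Pax3, Pax6, Pou3f2, Pou3f3, Pou5f1, Pou6f1, Rhox5, Rhox6 and Rhox13. All 27 matched a RefSeq gene with the same symbol. Pbx2 had 2 probes, which were averaged, and each other gene had 1 probe.

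FDCPmix is a mouse haematopoietic progenitor line that needs interleukin-3 to grow and gives rise to several kinds of blood cell. Tamoxifen is a ligand of the oestrogen receptor and of proteins fused to its ligand-binding domain. Each 2-colour array paired the RNA of treated cells, called the own RNA here, with a reference RNA in the other dye. There were 4 arrays of treated FDCPmix cells with no stated time against non-treated FDCPmix cells, and 4 arrays each at 3 h, 7 h and 12 h and 3 arrays at 23 h after treatment against treated cells at 0 h. The labels used here name no dose, genotype or transgene, and they write ES cell line beside FDCPmix without explanation. They do not say whether replicates were separate cultures, so p-values measure only the spread between these arrays, which may be technical. The 4 time points share the 0 h reference and are given side by side.

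Homeobox genes encode transcription factors that bind DNA through the homeodomain and set the identity of body regions and cell types. Hox proteins bind together with the TALE homeodomain proteins Pbx and Meis, which raise their DNA affinity and selectivity. In blood, genes of the Hoxa cluster and Meis genes are active in stem and progenitor cells and are turned down as cells mature, while Lhx, Nkx, Pax, Pou and Rhox genes act mostly in other tissues.

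Every value below is a log2 ratio, own RNA over reference, centred on each array's median. The base 2 and the own RNA as numerator are assumed, because the sources used here state neither. A ratio carries no expression level, so the data do not say which of these genes the cells expressed, nor can the labelled cell type be checked by its markers. The treated arrays were the more spread, with an SD over spots of 0.619 to 0.642, against 0.235 to 0.36 on the time course arrays, and the 2 sets were fitted apart. Arrays of the same group correlated weakly over features, meaning genes or probes without a single gene symbol. The mean Spearman correlation was 0.151 where the own RNA was in the same dye and -0.025 where it was in opposite dyes. Under the other reading of the ratios, in which each array with its own RNA in Cy3 has its sign turned (Cy3 arrays turned), the mean changed sides for 9 of the 27 genes in treated cells, 12 at 3 h, 11 at 7 h, 11 at 12 h and 17 at 23 h. A gene described below as above or below 0 on every array of a group then lies on both sides of 0, because each group holds both dyes. Replicate 4 at 7 h, whose repeated extreme value of 16.291 is positive although its own RNA was in Cy3, and replicate 3 at 23 h, whose deposited median was 0.233, are in doubt and were kept.

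The sequence just before the transcription start is printed for Hoxa9, Pou3f2 and Rhox13, 3 genes that results below turn on. Each stretch holds the 120 bases before the start, read in the direction of the gene from the RefSeq promoter table of build GRCm38.p6. Hoxa9 lies at chr6:52227371-52227490 on the minus strand, Pou3f2 at chr4:22488367-22488486 on the minus strand and Rhox13 at chrX:38120720-38120839 on the plus strand. Capitals mark the homeodomain core TAAT, read as ATTA on the other strand.
Hoxa9: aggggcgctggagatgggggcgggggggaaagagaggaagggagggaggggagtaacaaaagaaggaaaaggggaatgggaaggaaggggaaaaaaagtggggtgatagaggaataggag
Pou3f2: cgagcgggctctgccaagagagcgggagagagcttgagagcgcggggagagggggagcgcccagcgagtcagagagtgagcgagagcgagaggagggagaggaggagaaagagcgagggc
Rhox13: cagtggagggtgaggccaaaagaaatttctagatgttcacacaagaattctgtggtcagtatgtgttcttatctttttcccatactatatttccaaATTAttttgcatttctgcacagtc
Hoxa9 and Pou3f2 are rich in purines on this strand and hold no TAAT, and Rhox13 holds 1. Over the same 120 bases, TAAT on either strand was present in 31.8% of all 32851 promoters in the table and in 6 of the 24 promoters of the 19 homeobox genes that have an entry. The composite Hox and Pbx motif TGATNNAT was in 3.2% of all promoters, the Meis motif TGACAG in 7.64% and the oestrogen receptor palindrome, GGTCA and TGACC 3 bases apart, in 0.0304%, all searched on both strands. None of the 24 held any of these 3 motifs. These matches describe the letters of this window.

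None of the 27 homeobox genes passed an adjusted p of 0.05 in any comparison, by limma's moderated test with Benjamini-Hochberg adjustment over all features. The share of all features that passed it was 0% in treated cells, 0% at 3 h, 0% at 7 h, 0.0186% at 12 h (3 of 16089 features) and 0% at 23 h. At an unadjusted p under 0.05 there was 1 of the 27 in treated cells (Rhox13, higher), where 6.21% of all features passed and 3.1% passed on each side. At 3 h there were 6, where 10.8% of all features passed: Hoxa4 and Nkx2-6 higher, where 5.72% passed, and Hoxa9, Pax3, Pou3f2 and Pou6f1 lower, where 5.05% passed. At 7 h there were 2, where 7.04% passed: Hoxb2 higher, where 3.45% passed, and Rhox13 lower, where 3.59% passed. There were 4 at 12 h, all lower (Hoxa9, Hoxd8, Hoxd9 and Lhx2), where 6.25% of all features passed, 3.38% higher and 2.87% lower. There was none at 23 h, where 3.35% passed, 1.63% higher and 1.72% lower.

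These counts moved with the reading of the ratios and with single arrays. With the Cy3 arrays turned, the 6 at 3 h became 2, where 7.45% of all features passed, and the 4 at 12 h became 1, where 11.2% passed. The 2 at 7 h became 1, where 6.96% passed, the count at 23 h became 3, where 5.89% passed, and that in treated cells stayed at 1, where 7.16% passed. With 1 array of the same group left out, the count lay between 0 and 4 in treated cells, 2 and 10 at 3 h, 1 and 4 at 7 h, 1 and 7 at 12 h and 0 and 2 at 23 h. Of all features, 5.5% to 7.89% passed in treated cells over these fits, 5.21% to 11.4% at 3 h and 5.62% to 8.78% at 7 h. At 12 h 4.07% to 7.12% passed, and at 23 h 3.35% to 7.32%. The count at 3 h was 2 without replicate 2, where 5.21% passed, and 10 without replicate 3, where 11.4% passed. At 12 h it was 1 without replicate 1, where 4.07% passed, 2 without replicate 2, where 5.3% passed, and 7 without replicate 3, where 7.12% passed. Without both arrays in doubt it was 6 at 3 h, where 12.5% passed, 4 at 7 h, where 9.59% passed, and 7 at 12 h, where 8.02% passed. With a spread shared over all 19 arrays it was 9 in treated cells, where 22% of all features passed, 3 at 3 h, where 5.37% passed, and 2 at 12 h, where 3.51% passed.

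**Figure D1:**
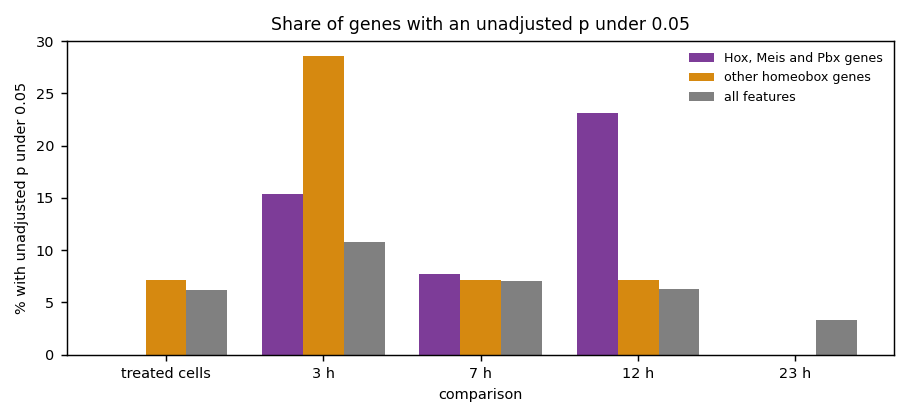
Percent of genes with an unadjusted p under 0.05 in each of the 5 comparisons, for the 13 Hox, Meis and Pbx genes, the 14 other homeobox genes and all features. A single gene is 7.69% of the first set and 7.14% of the second, and none of these genes passed the adjusted threshold.

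The 95% intervals bound the mean log2 ratio of each gene. In treated cells 11 of the 13 Hox, Meis and Pbx genes had an interval inside a 2-fold change either way, the exceptions being Hoxd9 and Meis3. So did 10 of the 14 other genes, the exceptions being Lhx2, Pax3, Pou3f2 and Rhox13. At 3 h, 7 h and 23 h all 13 and 13 of the 14, all but Rhox13, had such an interval, and at 12 h all 27 did. These bounds hold only if the deposited ratios have base 2 and their signs are read as deposited. They also cover only the spread between these arrays, which may be technical. Which genes lay near background is unknown, so the intervals bound the measured ratios and not a change in the amount of RNA.

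Hoxa9 encodes a factor of stem and progenitor cell self-renewal that is widely active in myeloid leukaemia. Its log2 ratio was -0.027, -0.23, -0.44 and -0.21 on the 4 treated arrays, -0.19, -0.36, -0.036 and -0.12 at 3 h and -0.25, -0.31, -0.067 and -0.19 at 12 h. All 12 of these arrays were below 0. It was -0.12, 0.25, 0.068 and 0.048 on the 7 h arrays and 0.058, 0.38 and -0.12 on the 23 h arrays, on both sides of 0, so that 14 of all 19 arrays were below 0. The fitted mean was -0.23 (SE 0.11, n = 4, limma adjusted p = 0.807) in treated cells. It was -0.18 (SE 0.079, n = 4, limma adjusted p = 0.462) at 3 h and -0.20 (SE 0.079, n = 4, limma adjusted p = 0.739) at 12 h. At 7 h it was 0.064 (SE 0.079, n = 4) and at 23 h 0.089 (SE 0.092, n = 3). Of all features, 7.59% were below 0 on every array in treated cells, 10.5% at 3 h and 7.01% at 12 h. With the Cy3 arrays turned, the Hoxa9 mean was 0.096 in treated cells, -0.10 at 3 h and -0.077 at 12 h, so in treated cells its side of 0 depends on how the ratios are read.

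Hoxa7 and Hoxa4, neighbours of Hoxa9 in the cluster on chromosome 6, are described beside it. Hoxa7, which like Hoxa9 can drive myeloid progenitor growth, stood at 0.50, -0.14, -0.20 and -0.19 on the treated arrays. Only replicate 1 was above 0, and the mean was -0.0095 (SE 0.15, n = 4). Over the 4 times the Hoxa7 means lay between -0.055 at 12 h and 0.086 at 3 h, and its values at 12 h were 0.11, -0.043, -0.20 and -0.088. Hoxa4, a gene of the middle of the cluster, was 0.14, 0.42, 0.14 and 0.20 at 3 h, above 0 on every array, where 11.1% of all features were. Its mean there was 0.23 (SE 0.076, n = 4, limma adjusted p = 0.425), and without replicate 2 it was 0.148 (adjusted p = 0.94). It was 0.054 (adjusted p = 0.923) with the Cy3 arrays turned. In treated cells Hoxa4 stood at 0.05, at 7 h at 0.024, at 12 h at -0.021 and at 23 h at -0.014.

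Hoxb2, a gene of hindbrain patterning on chromosome 11, was above 0 on 14 of 19 arrays. It was 0.31, 0.27, 0.07 and 0.077 on the treated arrays, 0.035, 0.16, 0.29 and 0.021 at 7 h and 0.16, 0.088, 0.14 and 0.087 at 12 h, all above 0. Of all features 6.48% in treated cells, 5.79% at 7 h and 7.53% at 12 h were above 0 on every array. At 3 h it was -0.17, -0.13, 0.054 and -0.094 and at 23 h -0.10, 0.087 and -0.13, mostly below 0. The mean was 0.13 (SE 0.057, n = 4, limma adjusted p = 0.702) at 7 h and 0.12 (SE 0.057, n = 4, limma adjusted p = 0.824) at 12 h. In treated cells it was 0.18 (SE 0.094, n = 4, limma adjusted p = 0.807). All 4 values at 12 h lay between 0.087 and 0.158, an SD of 0.036 against a median SD of 0.152 over all features. At 7 h the mean was 0.078 without replicate 3. The Hoxb2 mean with the Cy3 arrays turned was 0.11 in treated cells, -0.03 at 7 h and 0.0055 at 12 h.

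Hoxb7, a second gene of that cluster, ranged more widely. It was -0.20, 0.22, 0.68 and -0.33 on the treated arrays, on both sides of 0, with a mean of 0.093. At 23 h it was 0.012, -0.22 and -0.25, and its mean of -0.15 (SE 0.10, n = 3, limma adjusted p = 1) had the lowest p of all 27 genes at that time. Hoxc9, a gene of thoracic identity and the measured member of its cluster on chromosome 15, stayed within -0.093 in treated cells and 0.07 at 3 h over the 5 means.

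The 3 genes of the Hoxd cluster on chromosome 2, best known from the trunk, limbs and genital bud, are given in turn. Hoxd8 was -1.18, -0.32, 0.13 and -0.39 at 12 h, with replicate 1 far below the others and replicate 3 above 0. The mean was -0.44 (SE 0.13, n = 4, limma adjusted p = 0.622), and it was -0.205 (adjusted p = 1) without replicate 1. Its values at 7 h, -0.16, -0.23, -0.057 and -0.16, and at 23 h, -0.12, -0.03 and -0.13, were all below 0, with means of -0.15 and -0.13. At 7 h 6.82% of all features, and at 23 h 9.42%, were below 0 on every array. In treated cells, where Hoxd8 had a value on 3 of the 4 arrays, 0.18, 0.65 and 0.39, the mean was on the other side at 0.35 (SE 0.15, n = 3, limma adjusted p = 0.805). Its mean with the Cy3 arrays turned was -0.31 at 12 h, -0.044 at 7 h and -0.17 in treated cells, so there its side of 0 depends on the reading.

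Hoxd9 was -0.38, -0.32, -0.10 and -0.017 at 12 h, below 0 on every array, with a mean of -0.21 (SE 0.077, n = 4, limma adjusted p = 0.706), which was -0.15 with the Cy3 arrays turned. At 23 h it was 0.10, 0.16 and 0.023, above 0 on every array, where 10% of all features were. Its treated values were -2.95, -0.44, 0.52 and -0.17, and the mean of -0.76 (SE 0.47, n = 4) rested on replicate 1: without it the mean was -0.129. Hoxd4 stood at -0.18 in treated cells, where replicate 2 was at -0.64, and at 0.13 at 3 h, where replicate 2 was at 0.48. At 7 h, 12 h and 23 h its means were -0.019, 0.037 and 0.018.

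The partner genes gave no common direction. Meis3, a TALE factor known from the hindbrain and pancreas, was -0.33, 0.18, 4.40 and 0.079 on the treated arrays. Replicate 3 alone was high there and set the mean of 1.08 (SE 0.78, n = 4, limma adjusted p = 0.813). Over the time course the Meis3 means lay between -0.10 at 3 h and 0.00018 at 23 h. Meis2, a close relative of Meis1 with roles in heart, limb and neural crest, was above 0 on 13 of 19 arrays, and its highest mean over the time course was 0.14 (SE 0.088, n = 4, limma adjusted p = 0.757) at 7 h, where it was 0.39, 0.20, -0.14 and 0.13.

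Pbx3, a cofactor that Hoxa9 uses in myeloid leukaemia, was 0.26, 0.39, -0.027 and 0.25 at 12 h, above 0 on 3 of 4 arrays, with a mean of 0.22 (SE 0.11, n = 4, limma adjusted p = 0.824). In treated cells it was 0.021, 0.16, -0.45 and -0.29, above 0 on both arrays with the own RNA in Cy5 and below 0 on both in Cy3. Pbx2, a widely expressed Pbx gene, was -0.59, -0.51, -0.018 and 0.084 at 3 h, low on the arrays with the own RNA in Cy5 and near 0 on the others, with a mean of -0.26 (SE 0.12, n = 4, limma adjusted p = 0.468). Its 2 probes disagreed: the mean was -0.13 by one and 0.13 by the other in treated cells, -0.13 and -0.39 at 3 h, and -0.12 and 0.27 at 12 h.

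**Figure D2:**
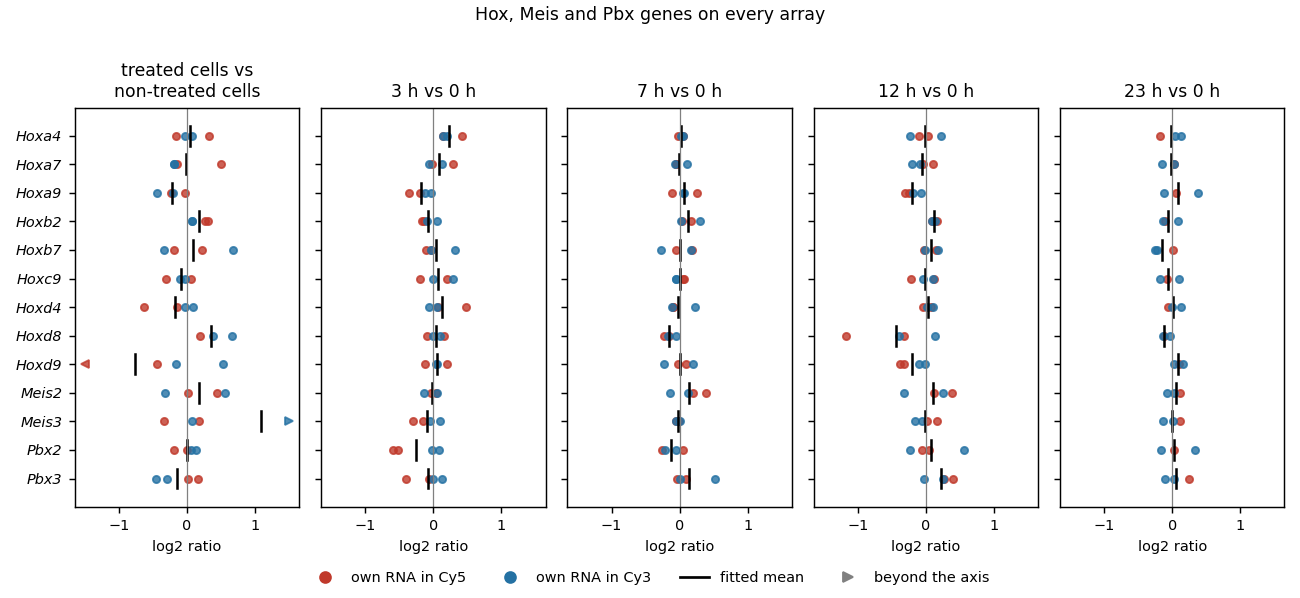
Log2 ratio of the 13 Hox, Meis and Pbx genes on each of the 19 arrays, one panel per comparison, with the dye of the own RNA in colour and the fitted mean as a black bar. Hoxa9 lies below 0 on every treated, 3 h and 12 h array, and 1 treated array each of Hoxd9 (-2.954) and Meis3 (4.398) lies beyond the axis.

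Among the other homeobox genes, the POU gene Pou3f2, a neuronal factor also called Brn2, was below 0 on 13 of 19 arrays. It was -0.29, -0.44, -0.24 and -0.20 at 3 h, below 0 on every array, with a mean of -0.29 (SE 0.11, n = 4, limma adjusted p = 0.433). That mean was -0.0715 (adjusted p = 0.923) with the Cy3 arrays turned. At 7 h it was -0.49, -0.33, -0.45 and 0.36: 3 arrays were at -0.33 or lower and replicate 4, one of the arrays in doubt, was above 0. The 7 h mean was -0.23 (SE 0.11, n = 4, limma adjusted p = 0.71). Without both arrays in doubt the 7 h mean was -0.428 with a limma adjusted p of 0.0248. Among the 27 genes this was the only call in the time course under the alternatives run. Without replicate 4 of 7 h alone the mean was -0.424 with a limma adjusted p of 0.0745. At 12 h and 23 h its means were -0.02 and 0.019. In treated cells it was 0.22, -1.61, -0.17 and -0.078, where replicate 2 set most of the mean of -0.41.

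Pou6f1, a POU gene of the nervous system, was -0.15, -0.36, -0.12 and -0.13 at 3 h, below 0 on every array, with a mean of -0.19 (SE 0.076, n = 4, limma adjusted p = 0.443). Without replicate 2 it was -0.126, and with the Cy3 arrays turned it was -0.0662 (adjusted p = 0.89). Pou3f3, a factor of brain and kidney also called Brn1, was 0.23, 0.30, -0.15 and 0.26 at 3 h, with replicate 3 alone below 0 and a mean of 0.16 (SE 0.089, n = 4), and its treated mean was -0.28 (SE 0.18, n = 4). Pou5f1, the pluripotency factor Oct4, was -0.22, -0.082, -0.20 and -0.59 at 7 h, below 0 on every array, and 0.16, 0.021, 0.015 and 0.085 at 12 h, above 0 on every array, where 7.53% of all features were. Its means were -0.27 (SE 0.20, n = 4, limma adjusted p = 0.822) at 7 h and 0.07 (SE 0.20, n = 4) at 12 h, and with the Cy3 arrays turned 0.12 at 7 h and 0.02 at 12 h. At 3 h it stood at 0.13 (SE 0.20, n = 4), in treated cells at 0.072 (SE 0.14, n = 4), and at 23 h at 0.049 (SE 0.23, n = 3) with arrays from -0.60 to 1.05. No level of Pou5f1, a defining gene of ES cells, was measured.

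The Pax genes encode paired-domain factors of organ formation, and Pax1 among them has no homeodomain although the symbol rule takes it. Pax3, a factor of neural crest and muscle precursors, was -0.15, -0.23, -0.17 and -0.28 at 3 h. All 4 arrays were below 0, with an SD of 0.058, and the mean was -0.21 (SE 0.071, n = 4, limma adjusted p = 0.425). With the Cy3 arrays turned it was 0.014. In treated cells Pax3 was -0.009, -2.24, 0.71 and 1.14, negative on both arrays with the own RNA in Cy5 and positive on both in Cy3. Pax6, the master regulator of eye development, was -0.51, -0.21, -0.043 and -0.55 in treated cells, below 0 on every array, with a mean of -0.33 (SE 0.14, n = 4, limma adjusted p = 0.803). With a spread shared over all 19 arrays its limma adjusted p was 0.0481. That setting lends the treated arrays the smaller spread of the time course and called 758 features. With a replicate block in place of the dye term of that fit, the limma adjusted p of Pax6 was 0.0705. With the Cy3 arrays turned its mean was -0.031.

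At 12 h Pax6 was 0.16, 0.006, 0.039 and 0.35, above 0 on every array, with a mean of 0.14 (SE 0.075, n = 4, limma adjusted p = 0.841). Pax1, a factor of the sclerotome and pharyngeal pouches, was also above 0 on every array at 12 h, 0.11, 0.30, 0.073 and 0.36, with a mean of 0.21 (SE 0.12, n = 4, limma adjusted p = 0.851). The 12 h means of Pax6 and Pax1 were on the other side of 0, at -0.055 and -0.008, with the Cy3 arrays turned. At 7 h the Pax1 mean of 0.24 (SE 0.12, n = 4) rested on replicate 3 at 0.91. Pax2, a factor of kidney and eye, was 0.28, 0.42, 0.025 and 0.007 at 3 h and -0.33, -0.37, 0.14 and -0.093 at 12 h, with means of 0.18 (SE 0.10, n = 4, limma adjusted p = 0.498) and -0.16 (SE 0.10, n = 4, limma adjusted p = 0.864). At both times the values were larger in size on the arrays with the own RNA in Cy5.

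Nkx2-6, a factor of the pharyngeal arches and heart, had the lowest p of the 27 genes at 3 h with the ratios as deposited. It was 0.49, 0.51, 0.11 and 0.28 there, above 0 on every array, with a mean of 0.35 (SE 0.10, n = 4, limma adjusted p = 0.425). At 12 h it was -0.28, -0.12, -0.26 and -0.076, below 0 on every array, with a mean of -0.18 (SE 0.10, n = 4, limma adjusted p = 0.83). The Nkx2-6 mean with the Cy3 arrays turned was 0.15 (adjusted p = 0.838) at 3 h and -0.015 at 12 h. At 7 h the values of -0.21, 0.13, 0.16 and -0.45 lay on both sides of 0, and at 23 h those of 0.019, 0.26 and 0.031 lay above it. In treated cells it stood at 0.32 (SE 0.20, n = 4) with replicate 4 at 1.04.

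Nkx2-4, a relative of the thyroid and forebrain factor Nkx2-1, was 0.26, 0.30, 0.26 and 0.046 on the treated arrays, above 0 on every array, where 6.48% of all features were. Its mean there was 0.22 (SE 0.10, n = 4, limma adjusted p = 0.805), and 0.0645 with the Cy3 arrays turned. At 12 h it was above 0 on both arrays with the own RNA in Cy5 and below 0 on both in Cy3, 0.065, 0.085, -0.29 and -0.53, and its dye term over the time course was 0.13 (limma adjusted p = 0.272). Lhx2, a LIM-homeodomain factor of forebrain and hair follicle that can also expand blood progenitors when overexpressed, was -1.0, -0.23, -0.073 and -0.084 at 12 h. All 4 arrays were below 0 and replicate 1 was far below the rest. The mean was -0.35 (SE 0.14, n = 4, limma adjusted p = 0.748), and it was -0.173 without replicate 1 and -0.27 with the Cy3 arrays turned. In treated cells Lhx2 was -0.37, -1.32, 0.41 and 2.35, negative on both arrays with the own RNA in Cy5 and positive on both in Cy3, with a mean of 0.27 (SE 0.39, n = 4) and a dye term of -1.11 (limma adjusted p = 0.678). The dye term had an unadjusted p under 0.05 for Lhx2 alone of the 27 genes on the treated arrays, where 7.16% of all features had one, and for Lhx2, Nkx2-4 and Rhox13 on the time course arrays, where 12% had one.

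Rhox13, a homeobox gene of male germ cells on the X chromosome, had the largest mean of the 27 genes in treated cells. Its treated values were 0.85, 4.06, 0.94 and 2.31, above 0 on every array and far apart. The mean was 2.04 (SE 0.62, n = 4, limma adjusted p = 0.793), with a 95% interval of 0.30 to 3.78, and it was 1.24 without replicate 2. It was called with a spread shared over all 19 arrays (adjusted p = 0.0254) and with a replicate block in place of the dye term of that fit (adjusted p = 0.0301), but these settings lend the treated arrays the smaller spread of the time course. With the Cy3 arrays turned the treated mean was 0.41.

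At 7 h Rhox13 stood on the other side. It was -2.04, -1.42, 0.34 and -1.51, below 0 on 3 of 4 arrays, with a mean of -1.16 (SE 0.27, n = 4, limma adjusted p = 0.538). The mean was -0.826 without replicate 4 and -1.51 without replicate 3, and with the Cy3 arrays turned it was -0.57. At 3 h it had values on 3 arrays, -0.41, 0.023 and 0.96, at 12 h it was 0.23, -0.36, 0.30 and 0.33 and at 23 h -1.56, 0.067 and 0.76, each on both sides of 0. Its means at these times were 0.37 (SE 0.32, n = 3), 0.12 (SE 0.27, n = 4) and -0.43 (SE 0.32, n = 3). Over the time course its dye term was -0.54 (limma adjusted p = 0.221). Rhox5, an androgen-dependent gene of Sertoli cells and epididymis, and Rhox6, a gene of germ cells and placenta, lie in the same cluster on the X chromosome. They had means between -0.0047 and 0.087 and between -0.05 and 0.15, and Rhox6 was above 0 on every array at 3 h (0.14, 0.28, 0.06 and 0.12).

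**Figure D3:**
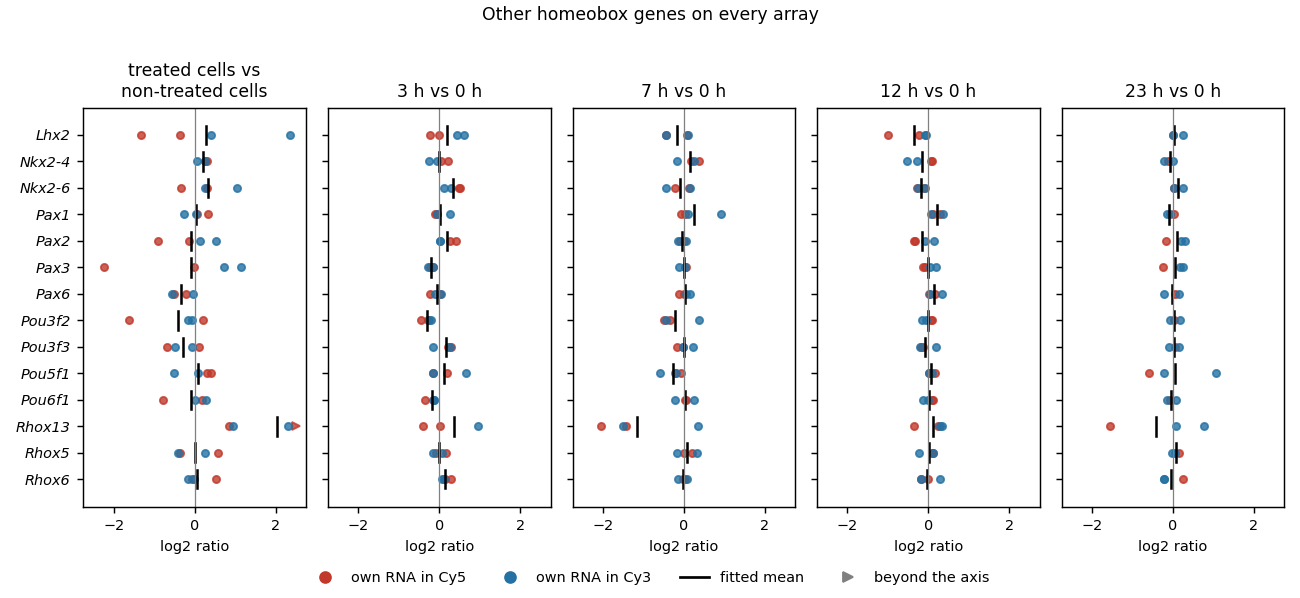
Log2 ratio of the 14 other homeobox genes on each of the 19 arrays, drawn as for the Hox genes. Rhox13 has treated arrays from 0.85 to 4.059, the highest beyond the axis, and 7 h arrays from -2.045 to 0.344.

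Whether any value depended on the time was asked by an F test over the means at 3 h, 7 h, 12 h and 23 h. No feature passed an adjusted p of 0.05, which is 0% of 16024. At an unadjusted p under 0.05 there were 4 of the 27 genes, where 6.63% of all features passed: Nkx2-6, Rhox13, Hoxb2 and Hoxa9. Their adjusted p by limma was 0.751 for the first 3 and 0.753 for Hoxa9. Hoxa9 had its 2 lower means at 3 h and 12 h, and Hoxb2 its 2 higher means at 7 h and 12 h. Nkx2-6 was highest at 3 h and lowest at 12 h, and Rhox13 was lowest at 7 h. The Hoxa9 arrays at 12 h, the highest at -0.067, overlapped those at 7 h, the lowest at -0.12. The Hoxb2 arrays at 12 h, the lowest at 0.087, did not overlap those at 3 h, the highest at 0.054. How many of all features had such a separation of times was not counted.

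**Figure D4:**
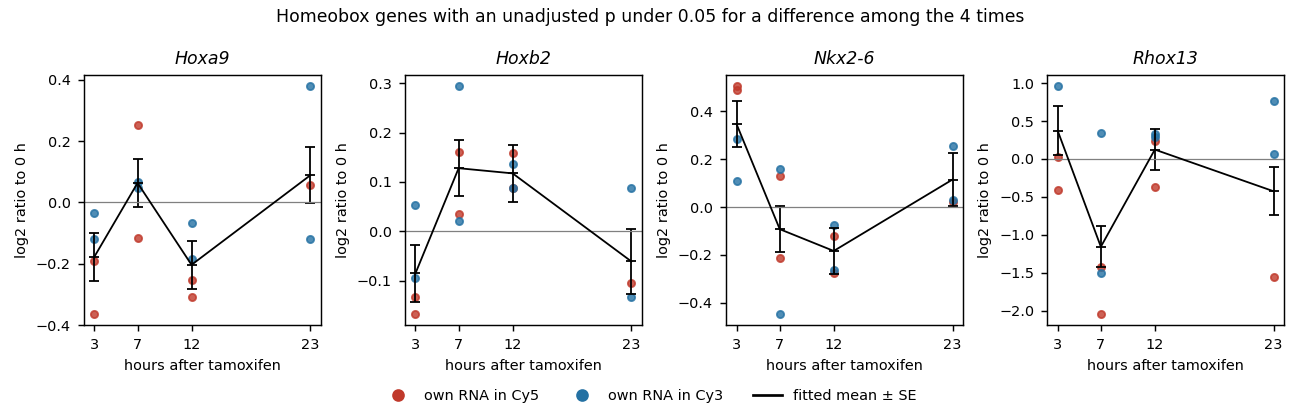
Log2 ratio to 0 h of the 4 of the 27 homeobox genes with an unadjusted p under 0.05 in the F test, against hours after tamoxifen. Points for arrays are coloured by the dye of the own RNA, and the fitted mean with its SE is in black. Each gene has its own vertical scale, and none passed the adjusted threshold.

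As a set, the Hox, Meis and Pbx genes were centred near 0. Their median fitted mean was 0.0005 in treated cells, 0.038 at 3 h, 0.0037 at 7 h, -0.0073 at 12 h and 0.0002 at 23 h. The medians of the other homeobox genes were 0.024, 0.07, -0.0089, -0.0099 and 0.018 in the same order, and those of all features 0.009, 0, -0.0018, 0.0022 and 0.0013. Between 6 and 8 of the 13 Hox, Meis and Pbx genes had a mean above 0 in each comparison, and between 6 and 8 of the other 14, while 52.1% of all features had one in treated cells, 50% at 3 h, 49.4% at 7 h, 51.1% at 12 h and 50.5% at 23 h. The typical size of a mean, its median regardless of sign, was 0.17 for the Hox, Meis and Pbx genes and 0.158 for the others in treated cells, against 0.128 for all features. At 3 h it was 0.0855 and 0.171, against 0.0838, and at 7 h 0.026 and 0.09, against 0.067. At 12 h it was 0.077 and 0.105, against 0.06, and at 23 h 0.056 and 0.049, against 0.061.

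On the single arrays the set medians lay between -0.10 and 0.16. The Hox, Meis and Pbx median was below that of the other homeobox genes on all 4 treated arrays, by 0.018 to 0.136, and above it on all 4 arrays at 7 h, by 0.006 to 0.024. It was above on 1 of 4 arrays at 3 h, 1 of 4 at 12 h and 1 of 3 at 23 h. Turning the Cy3 arrays put it above on 2 of 4 treated arrays, 1 of 4 at 3 h, 2 of 4 at 7 h, 1 of 4 at 12 h and 3 of 3 at 23 h, so neither the treated nor the 7 h order held under that reading.

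**Figure D5:**
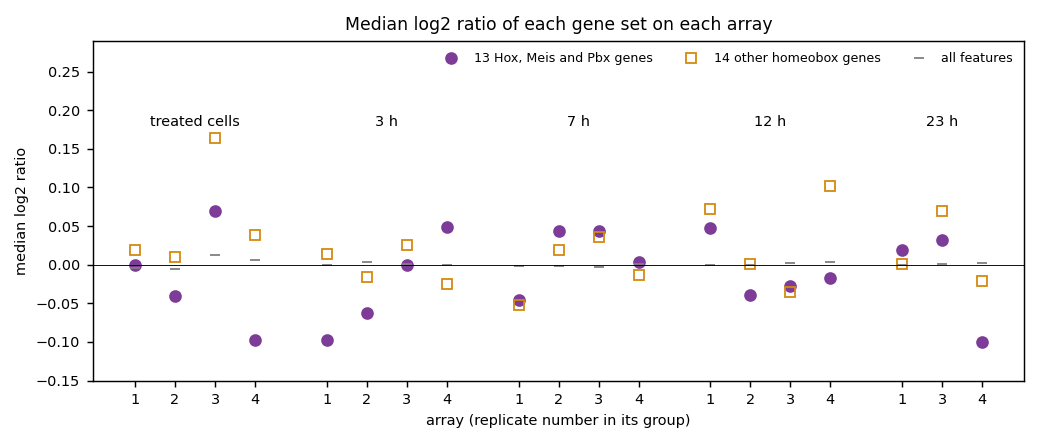
Median log2 ratio on each of the 19 arrays of the 13 Hox, Meis and Pbx genes (filled), the 14 other homeobox genes (open) and all features (dashes), by group and replicate number. Both sets lie close to the median of all features, and treated replicate 3 has the highest value, for the other homeobox genes.

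Genes around the Hox system gave no called change either. Of a list of 38 chromatin and upstream regulators of Hox genes 29 were tested, and none passed an adjusted p of 0.05 in any of the 5 comparisons. The lowest p in treated cells were those of Gmnn, the replication licensing inhibitor geminin, at 0.73 (SE 0.18, n = 4, adjusted p = 0.792) and Rnf2, a Polycomb ubiquitin ligase, at -1.53 (SE 0.44, n = 3, adjusted p = 0.793). At 12 h they were those of Ctcf, the insulator protein, at 0.18 (SE 0.066, n = 4, adjusted p = 0.706) and Ring1, the relative of Rnf2, at -0.53 (SE 0.24, n = 4, adjusted p = 0.79). At 23 h they were those of Cdx1, an activator of Hox genes in the embryo, at -0.43 (SE 0.11, n = 3, adjusted p = 1) and again Rnf2 at -0.41 (SE 0.18, n = 3, adjusted p = 1). The other lowest p belonged to the Polycomb genes Ezh1, at 0.18 (SE 0.065, n = 4, adjusted p = 0.433), and Phc2, at -0.23 (SE 0.10, n = 4, adjusted p = 0.462), at 3 h. At 7 h they belonged to the Polycomb gene Cbx7, at -0.16 (SE 0.08, n = 4, adjusted p = 0.714), and the histone acetyltransferase gene Kat6a, at 0.12 (SE 0.061, n = 4, adjusted p = 0.716).

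Of 28 genes known as targets of Hoxa9 and Meis1, 17 were tested and none was called. In treated cells 4 of them were lower and none higher at an unadjusted p under 0.05, where 3.1% of all features were lower, and the list's median was -0.135, against 0.009 for all features. The list's array medians there lay between -0.1775 and -0.009, and with the Cy3 arrays turned they lie on both sides of 0. The lowest p were those of Cdkn1a, the cell cycle inhibitor p21, at -0.50 (SE 0.13, n = 4, adjusted p = 0.793) and Bcl2, a survival factor, at -0.35 (SE 0.10, n = 4, adjusted p = 0.793). Cdkn1a stood at -0.35 (SE 0.12, n = 4, adjusted p = 0.425) at 3 h, beside the kinase Pim1 at -0.32 (SE 0.13, n = 4, adjusted p = 0.445). At 7 h Igf1r, a growth factor receptor, stood at -0.26 (SE 0.071, n = 4, adjusted p = 0.629), at 12 h Pim1 at -0.30 (SE 0.13, n = 4, adjusted p = 0.784), and at 23 h the ETS factor Erg at -0.27 (SE 0.081, n = 3, adjusted p = 1). The kinase gene Jak2 stood above 0 at 23 h, at 0.14 (SE 0.06, n = 3, adjusted p = 1). At an unadjusted p under 0.05, 1 target was higher and 2 were lower at 3 h, likewise 1 and 2 at 7 h, none and 3 at 12 h, and 2 and 1 at 23 h. Of all features, 5.72% were higher and 5.05% lower at 3 h, and 3.45% and 3.59% at 7 h. These shares were 3.38% and 2.87% at 12 h and 1.63% and 1.72% at 23 h. The list's median was -0.0026 at 3 h, -0.071 at 7 h, 0.0085 at 12 h and 0.0165 at 23 h, on both sides of 0. Of 11 other TALE genes 8 were tested and of 74 other homeodomain genes 20, with no call in any comparison. Among these, Alx4, a limb and skull factor, stood at -1.18 (SE 0.21, n = 3, adjusted p = 0.792) in treated cells.

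Markers of blood and other cell types were set out in 9 lists, and again no gene was called. Of 13 neutrophil markers 11 were tested, and their median was -0.22 in treated cells, with array medians from -0.309 to -0.134, and -0.37 at 12 h, with array medians from -0.544 to -0.26. With the Cy3 arrays turned, the array medians of both groups lie on both sides of 0, so their direction depends on the reading. S100a9 stood at -0.39 (SE 0.10, n = 4, adjusted p = 0.792) and the elastase gene Elane at -0.40 (SE 0.12, n = 4, adjusted p = 0.793) in treated cells, and S100a8 at -0.52 (SE 0.18, n = 4, adjusted p = 0.693) and the collagenase gene Mmp8 at -0.76 (SE 0.29, n = 4, adjusted p = 0.739) at 12 h. These are 2 of the groups in which Hoxa9 was below 0 on every array, and the part of neutrophil RNA in the Hoxa9 values was not tested. At 3 h, where Hoxa9 was also below 0 on every array, the neutrophil median was -0.138, with array medians from -0.211 to -0.063. With the Cy3 arrays turned these too lie on both sides of 0. The median was -0.124 at 7 h, with array medians from -0.5225 to 0.447, and -0.303 at 23 h, with array medians from -0.781 to 0.584. As deposited, the only arrays with a neutrophil median above 0 were those in doubt, replicate 4 at 7 h (0.447) and replicate 3 at 23 h (0.584). Fewer cells of a type and less RNA per cell cannot be told apart in such bulk samples.

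The medians of 4 tested monocyte and macrophage markers were -0.396 in treated cells and between -0.093 and -0.019 at the 4 times, and those of 3 mast cell and basophil markers lay between -0.208 and -0.062. The progenitor markers, of which 10 of 15 were tested, had medians between -0.035 and 0.014. Those of 6 erythroid markers lay between -0.097 and 0.085, of 5 megakaryocyte markers between -0.075 and 0.126, of 7 lymphoid markers between -0.046 and 0.016, of 10 pluripotency markers between -0.104 and 0.102 and of 12 fibroblast markers between -0.081 and 0.011.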

How the data were processed

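Total RNA was labelled indirectly with Cy3 or Cy5 and hybridised to 2-colour arrays, per the labels' protocols, which also mention organs and pooled control animals and so do not match a cell line. Each reference was therefore read from the channel labels. The values deposited by the authors are log ratios, 1 for each spot, and were taken as log2, although base, numerator and normalization were not given in the sources used here. Deposited signs were kept.

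Each array was centred on its median, and the 1 extreme value per array repeated on 8 to 29 of 20205 spots was set to missing. Between 19658 and 20158 spots had a value. No intensities were used, so the depth is unknown and precision is limited by the number of arrays. Of the probes, 13891 had 1 gene symbol, 5 several and 6309 none. Probes of a gene were averaged, giving 16148 features. Features with a value on at least 3 of 4 arrays, or 2 of 3 at 23 h, were tested.

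The group mean was tested against 0 with limma 3.58.1 (R 4.3.3), with the dye of the own RNA as a term and Benjamini-Hochberg adjustment over all features. The 4 treated arrays were fitted alone and the 15 time course arrays together. The scripts were tested on simulated data. Figures were drawn with matplotlib 3.10.9.

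Named were, per set and comparison, the 5 genes with the lowest p, the 3 highest and 3 lowest means and any called gene, Hoxa9 and Pou5f1 throughout, and from each list genes among the 2 with the lowest p; other members were added. Members and lists were chosen with earlier results of these data known. Alternatives changed the sign of the Cy3 arrays, centring, scaling, extreme values, the filter, the shared spread, array weights, the dye term, a replicate block and the probe choice, or left out arrays.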

Additional observations from a re-analysis of the deposited data

Results flagged for a closer look

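Over the 27 genes and the medians of both gene sets, 114 groups of 4 values could be examined for 1 array far from the other 3. This was so in 10 of them, or 8.77%, where chance is put at about 1 in 20. The share over all features on these arrays was not counted, so no excess is read from this. In treated cells these were Hoxa7, with replicate 1 at 0.497, and Meis3, with replicate 3 at 4.398. At 3 h they were Pax1, with its highest array at 0.268, Pou3f3, with its lowest at -0.146, and Pou6f1, with its lowest at -0.361. At 7 h they were Hoxa7, with its highest array at 0.102, and Hoxd4, with its highest at 0.232. At 12 h Pou3f3 had its highest array at 0.183, Rhox13 its lowest at -0.364 and Rhox5 its lowest at -0.226.

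In 4 cases every array of one time lay on one side of 0 and every array of another time on the other side. At single times, 5.79% (7 h) to 11.1% (3 h) of all features were above 0 on every array. Below 0 on every array were 6.82% (7 h) to 10.5% (3 h). The share of all features on opposite sides at a pair of times was not counted. The differences given next are between plain means over the arrays, not between the fitted means used above. Nkx2-6 was lower at 12 h than at 3 h, by a difference of means (12 h minus 3 h) of -0.53, and higher at 23 h than at 12 h, with 23 h minus 12 h at 0.2852. Pou5f1 was higher at 12 h than at 7 h, with 12 h minus 7 h at 0.344. Hoxd9 was higher at 23 h than at 12 h, with 23 h minus 12 h at 0.2993. With the Cy3 arrays turned, none of these times has all its arrays on one side of 0. These differences between pairs of times were not tested themselves, and the F test over the 4 times gave adjusted p-values by limma of 0.751 for Nkx2-6, 0.879 for Pou5f1 and 0.757 for Hoxd9.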

How the results depend on the processing

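None of the 27 genes was called under the fit described, and 3 were under an alternative: Rhox13 and Pax6 in treated cells and Pou3f2 at 7 h, as given above. The count of called features in treated cells, 0 in that fit, was 758 with a spread shared over 19 arrays (380 higher), 2 with array weights and 606 with the replicate block, which also shares that spread (314 higher). At 3 h, also 0, it was 16 without both arrays in doubt, 8 without replicate 4 of 7 h alone and 3 with array weights. At 7 h, also 0, it was 77 without both arrays in doubt and between 0 and 12 with 1 array of that time left out, 12 without replicate 4. The 3 features called at 12 h became 40 without both arrays in doubt, 30 with array weights, 0 with the extreme values kept, 0 with a value required on every array, 5 to 10 with 1 array of 12 h left out, 0 without replicate 1, 2 or 3 of 7 h or replicate 4 of 23 h, 1 without replicate 4 of 7 h and 7 without replicate 3 of 23 h. At 23 h, 0 became 59 without both arrays in doubt and 0 to 1 with 1 array left out. For the F test, 0 became 1 with the Cy3 arrays turned, 10 without both arrays in doubt and 0 to 6 with 1 array left out.

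The Hox, Meis and Pbx median was -0.076 to 0.047 in treated cells with 1 array left out, -0.065 at 3 h with the Cy3 arrays turned, and 0.074 at 23 h without centring. The median of the other homeobox genes at 3 h was -0.0102 with the Cy3 arrays turned, 0.0097 with a value required on every array and -0.037 to 0.099 with 1 array left out, and at 23 h it was -0.041 with the Cy3 arrays turned and 0.092 without centring. With the Cy3 arrays turned, Pax3 at 3 h (0.014) and Hoxb2 at 7 h (-0.03) turned round. The cause of these shifts was not tested. Replicate numbers did not pair the arrays: same-numbered arrays correlated in their deviations at 0.029 on average (from -0.108 to 0.194), against 0.044 for arrays of the same dye and another number, and not every array correlated best with its own number (9 of 19 did). At the 4 times the replicate block left the counts at 0, 0, 3 and 0. No signal over background was used, so which genes lay near background is unknown.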
